A study of Homo sapiens with 4 samples.

Results

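The light-strand file of the human mitochondrial genome covers, from position 13341 to 15921, the strand opposite both ribosomal RNA genes and the valine tRNA gene between them. All 2581 positions of this stretch were taken as members, of 16500 positions in the file. They were chosen by position alone. In the order in which a light-strand transcript would be read, 1558 positions (13341 to 14898) lie opposite RNR2, the 16S rRNA of the large mitoribosomal subunit. The next 69 (14899 to 14967) lie opposite TRNV, the valine tRNA that is built into the human large subunit, and 954 (14968 to 15921) lie opposite RNR1, the 12S rRNA of the small subunit. Each light-strand position pairs with the heavy-file position that adds up with it to 16569, so the stretch pairs with heavy-file positions 648 to 3228, and 2581 of 2581 positions were complementary in the base columns of both files.

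The values are mismatch fractions from DMS-MaPseq, in which dimethyl sulfate (DMS) methylates unpaired A and C and the reverse transcriptase TGIRT-III writes a mismatch there. The mitochondria came from HEK-293T, an established line of human embryonic kidney cells (the source label drops the T). The 2 wild-type libraries and the 2 libraries of an LRPPRC knockout (LRPPRC KO) are labelled as bioreplicates 1 and 2 of each genotype. Each of the 4 samples received 1% DMS at 37 °C, for 5 min. No library without DMS was analysed here, so mismatches present without DMS cannot be told apart from those made by it. How the knockout was made and whether it is 1 clone are not given in the sources used here. Whether bioreplicates came from separate cultures is not given either, so p-values measure the spread between these libraries. The LRPPRC gene lies in the nucleus and its RNA was not analysed here, which leaves no check of the knockout itself.

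The mitochondrial genome is transcribed from both strands into long RNAs. The heavy-strand transcripts carry the rRNAs, most mRNAs and most tRNAs. The light-strand transcript carries ND6, 8 tRNAs and long stretches with no gene of their own, and the strand opposite the rRNAs comes at its far end. The protein MTERF1 binds DNA within TRNL1, the gene of the leucine tRNA for UUR codons next to RNR2, and is known to stop light-strand transcription before it reaches the rRNA genes. RNA without a gene from this strand is degraded by the helicase SUV3 and the nuclease PNPase with the help of GRSF1. LRPPRC, with its partner SLIRP, binds and stabilises mitochondrial mRNAs, and the rRNAs are not among its known targets.

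DMS on an RNA of the light strand itself would be read at A and C of this file. Mismatches at G and T of this file sit opposite C and A of the rRNA and are taken here as reads of the rRNA. Sequences below come from the deposited base column of the light-strand file, in its own numbering, and are written 5′ to 3′. The first is the edge of the stretch (13311 to 13370), shown because the signal steps there, with the part opposite RNR2 in capitals.
Edge of the stretch: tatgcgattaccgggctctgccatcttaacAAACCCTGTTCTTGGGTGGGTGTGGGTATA

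Next come 3 of the A and C sites that rose to high values in the knockout, with the position itself in capitals. They are shown because their paired rRNA positions had fractions of at most 0.220% in every library. The A at 13810, with 2.97% and 2.78% in wild type against 6.70% and 10.9% in the knockout, is left out because its partner was higher, at up to 0.746%, and the A at 13373, described further on, because its partner was itself high.
Light 15300, opposite RNR1: ggtttgctgaAgatggcggta
Light 15705, opposite RNR1: ccctggggttAgtatagctta
Light 14016, opposite RNR2: aaacatgtgtCactgggcagg

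The last site is a T opposite the adenine of 16S rRNA at heavy-file position 2617, which is known to be methylated to N1-methyladenosine in the cell.
Light 13952, opposite RNR2: caggtccctaTttaaggaaca

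Across the stretch the A and C positions were barely mutated, in both genotypes. With the 1 position above 0.3 left out, the mean mismatch fraction over 1027 A and C positions was 0.344% and 0.330% in the wild-type libraries and 0.299% and 0.293% in the knockout libraries. In the rest of the light-strand file the same bases averaged 1.65% and 1.64% in wild type against 2.11% and 2.12% in the knockout. On the log2 scale the stretch lay below the rest of the file by 2.29 ± 0.0316 (SD, n = 2) in wild type and by 2.84 ± 0.0248 (n = 2) in the knockout. The gap between the genotypes, -0.55, exceeded both SDs, and the exact permutation test (two-sided) gave 0.3333, the smallest p that 2 libraries against 2 allow. That smallest value is what the test gave for each single value below unless stated.

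Few A or C positions carried more than a trace of signal. A mean of at least 1% over the 4 libraries was reached by 50 of 1027 A and C positions (4.87%), against 3908 of 5192 (75.3%) in the rest of the file. Opposite ND1, the mRNA that a light-strand transcript passes just before TRNL1 and the rRNAs, it was reached by 251 of 340 (73.8%). Opposite TRNL1 it was reached by 16 of 34 (47.1%).

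The label of the stretch as light-strand RNA is therefore only partly borne out by the base pattern. Dividing the A and C mean by the G and T mean gave 0.247 and 0.212 in the wild-type libraries and 0.308 and 0.278 in the knockout libraries, so G and T carried most of the signal in each of the 4. The knockout was higher by 0.0638, with no overlap between groups. In the rest of the file this ratio was 0.889 and 0.865 in wild type against 3.26 and 3.25 in the knockout. Opposite ND1 it was 0.661 ± 0.00602 in wild type against 1.79 ± 0.0165 in the knockout (n = 2 each). Opposite COX1, another mRNA, it was 0.278 ± 0.00541 in wild type against 2.52 ± 0.0202 in the knockout. A low ratio in wild type was thus not particular to the stretch, while in the knockout the stretch lay far below ND1 and COX1. Opposite TRNL1, next to the stretch, the ratio was 1.26 ± 0.0235 in wild type against 1.29 ± 0.0176 in the knockout. A small change of the ratio was thus not particular to the stretch. On the log2 scale its change exceeded that opposite TRNL1 by 0.32. The change of the ratio in the stretch was smaller than that in the rest of the file by 1.54 on the log2 scale, more than the SD of either group (0.129 and 0.102). The stretch is called below by its position opposite the rRNAs.

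Each A and C of the light-strand file was also set against the G or T it pairs with in the heavy-strand file, a base that DMS marks little. Those paired heavy-file positions averaged 0.3002% and 0.277% in wild type against 0.252% and 0.256% in the knockout. The light-strand mean was 1.17 ± 0.0306 times the paired mean in wild type and 1.17 ± 0.0306 times in the knockout (n = 2 each). The 4 libraries overlapped, with values between 1.15 and 1.19 (exact permutation p = 0.6667). Opposite ND1 the same quotient was 1.87 ± 0.0439 in wild type against 3.06 ± 0.00291 in the knockout. Opposite COX1 it was 1.24 ± 0.0432 in wild type, near that of the stretch, against 3.19 ± 0.00598 in the knockout. Opposite TRNL1 it did not rise either, at 1.57 ± 0.121 in wild type against 1.37 ± 0.0746 in the knockout. Averaged over the stretch, A and C of the light-strand file thus stood close to the level of G and T on the rRNA strand.

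A and C values fell at the edge and again 100 nt further in. In bins of 100 nt, the 1000 nt before the stretch had mean A and C fractions between 0.7997% and 2.67% over all bins and libraries. The last bin before the edge, most of it opposite TRNL1, had 1.13% and 1.15% in wild type and 1.14% in both knockout libraries. The first 100 nt inside had 0.606% and 0.743% in wild type against 0.364% and 0.376% in the knockout, and the next 100 nt had 0.285% and 0.306% against 0.189% and 0.193%. Both knockout libraries lay below both wild-type libraries in these first bins. The lowest A and C values of the knockout came 200 to 299 nt past the edge, at 0.0587% and 0.0330%, where wild type had 0.170% in each library. Further in, wild-type bins ranged up to 0.525% and knockout bins up to 0.726%. Over the 25 bins both knockout libraries were below both wild-type libraries in 13 and above them in 6.

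**Figure D1:**
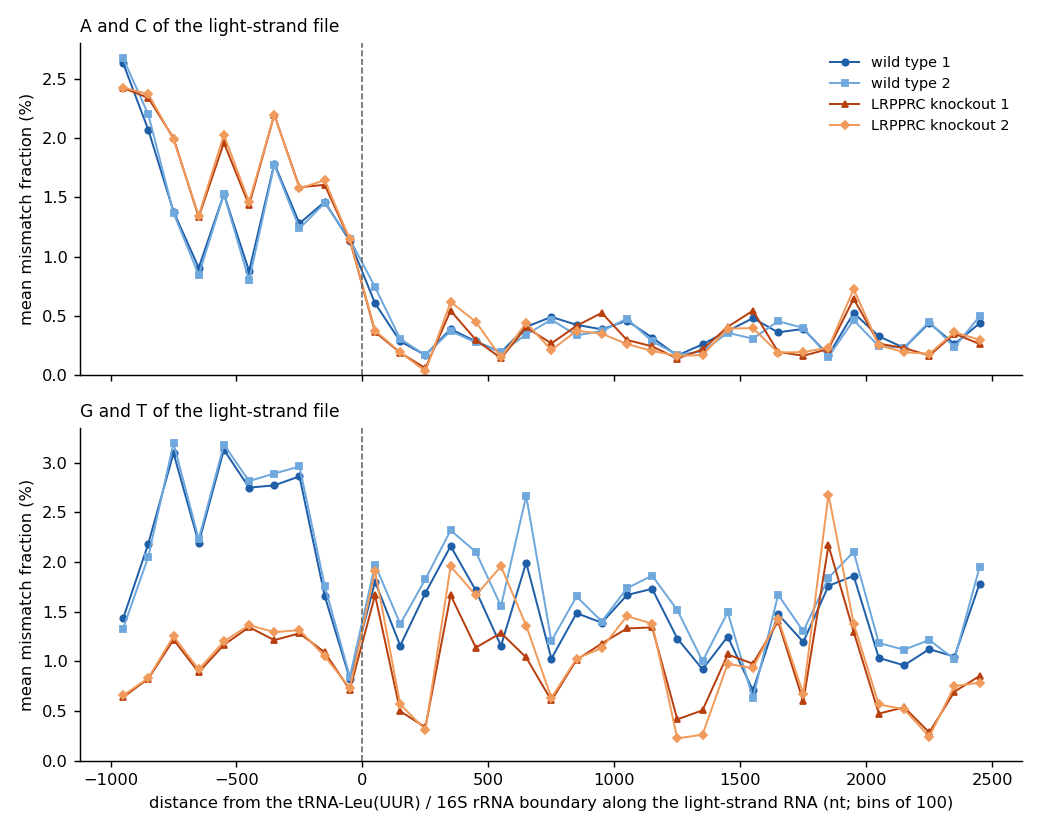
Mean mismatch fraction per 100-nt bin (y axis, percent) at A and C (top) and at G and T (bottom) of the light-strand file, against distance from the edge between the stretches opposite the leucine tRNA and the 16S rRNA (x axis, nt). Each line is 1 library. A and C range from 1.13% to 1.15% in the last bin before the edge and from 0.364% to 0.743% in the first bin inside. G and T step up across the same edge, from a last bin that is below the median of the bins before the edge in every library.

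The signal at G and T stepped up at the same edge, from a last bin that was low for the 1000 nt before it. Over the 10 bins of those 1000 nt the median G and T mean was 2.47% and 2.52% in wild type against 1.13% in both knockout libraries. The median slope, explained below, was 72.6% and 76.5% against 33.0% and 31.7%. The step is thus no first appearance of G and T signal. The bin before it had G and T means of 0.825% and 0.843% in wild type against 0.714% and 0.732% in the knockout. The first 100 nt inside had 1.80% and 1.97% in wild type against 1.67% and 1.91% in the knockout. The slope of light-strand G and T on the paired C and A of the other strand, a measure of how much of that strand's pattern appears in the light-strand file, changed with it. It was 13.3% and 14.2% in wild type against 14.3% and 15.8% in the knockout in the bin before the edge, and 70.1%, 76.4%, 81.4% and 76.6% in the first bin inside. All 4 libraries stepped up at the edge, and in the first bin inside both knockout slopes lay above both wild-type slopes, by a narrow margin.

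Over all pairs with an rRNA-strand mean of at most 0.3, light-strand G and T averaged 1.30% and 1.44% in wild type against 0.902% and 0.984% in the knockout. The slope on the rRNA strand over 1543 pairs was 64.9% and 73.4% in wild type against 47.8% and 51.1% in the knockout. The knockout libraries were the lower ones by 19.8 percentage points, more than either SD (6.06 and 2.33). With pairs above 0.1 on the rRNA strand left out as well, the difference was -8.08 points. Points lay closer to the line in wild type, where Pearson's r across pairs was 0.927 and 0.939, than in the knockout, where it was 0.719 and 0.728. Pairs within a library share its reads and are not independent replicates.

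By gene, the slope was 76.9% and 83.6% in wild type against 51.6% and 54.5% in the knockout opposite RNR1. Limma across the 37 gene stretches called this fall of 27.2 points (SE 3.13, adjusted p = 0.00901). Opposite RNR2 it was 59.8% and 68.7% against 46.7% and 50.3%, a difference of -15.8 points that did not pass the threshold (SE 4.11, adjusted p = 0.0589), though it did with either wild-type library left out (adjusted p = 0.00478 and 0.00895). Opposite TRNV the knockout libraries were the higher ones, at 102% and 85.6% against 77.6% and 63.1%, again short of the threshold (23.3 points, SE 9.15, adjusted p = 0.139). Of all 37 gene stretches 51.4% were called in either direction for the slope. These differences rested in large part on few pairs. With pairs above 0.1 on the rRNA strand left out, 557 of 564 pairs remained opposite RNR1 and 917 of 939 opposite RNR2. The slope then differed by -11.2 and -6.88 points. The stretch opposite TRNL1 had slopes of 13.8% ± 0.610 in wild type against 15.2% ± 1.06 in the knockout (n = 2 each), and that opposite ND1 62.4% ± 0.0484 and 33.0% ± 0.0181. In the fits without 1 knockout library, the call for RNR1 did not hold (adjusted p = 0.0815 without knockout replicate 1 and 0.0722 without knockout replicate 2).

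**Figure D2:**
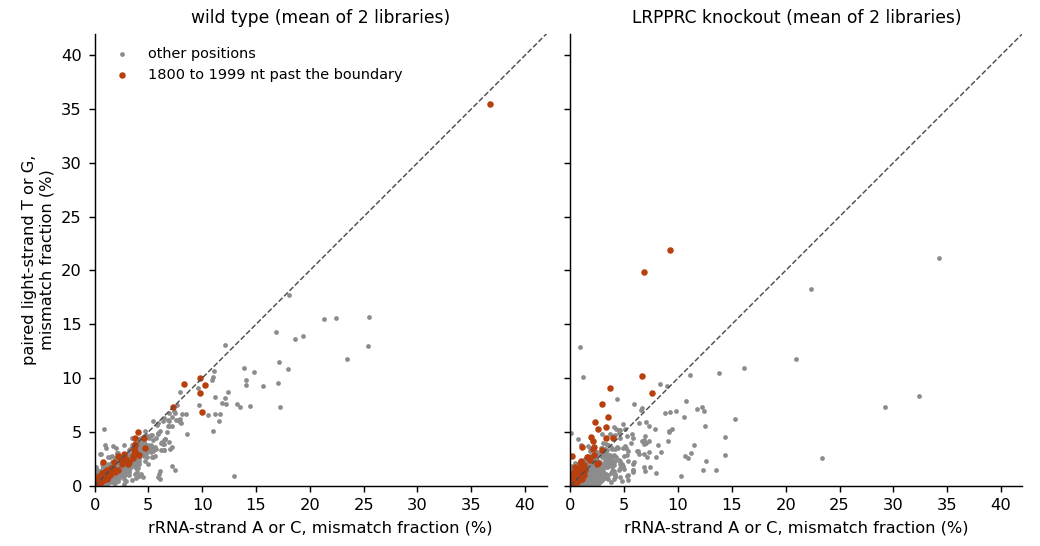
Each point is 1 A or C of the rRNA strand (x axis, mismatch fraction in percent, mean of 2 libraries) with its paired T or G of the light-strand file (y axis, same unit), in wild type (left) and the LRPPRC knockout (right). The dashed line marks equal values. The coloured points lie in the 2 bins that start 1800 and 1900 nt past the edge, picked because the knockout slopes were highest there. In these bins 30 of 39 pairs with an rRNA-strand mean of at least 1% were above the line in both knockout libraries. In both wild-type libraries 6 of 39 were, and these counts follow in part from the choice of bins.

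The lower slope of the knockout did not hold all along the stretch. Of the 25 bins inside, both knockout slopes lay below both wild-type slopes in 15 and above them in 7. The bin that starts at 1500 nt, for example, had 16.2% and 11.6% in wild type against 51.3% and 54.3% in the knockout. The highest knockout slopes came in a pair of neighbouring bins. From 1800 to 1899 nt past the edge, opposite RNR1, the slope was 91.1% and 98.9% in wild type against 167% and 181% in the knockout. In the next 100 nt it was 94.3% and 94.4% in wild type against 244% and 245% in the knockout, so light-strand G and T there exceeded the rRNA strand they pair with. Among 39 pairs of these 200 nt with an rRNA-strand mean of at least 1%, the light-strand value was the higher one in 7 and 15 pairs of the wild-type libraries and in 32 and 33 pairs of the knockout libraries. Over the whole stretch this held for 56 and 103 of 625 pairs in wild type and for 112 and 130 in the knockout. The pair of bins was picked for its slopes, so the count within it follows in part from that choice. A G at 15276, singled out after its values were seen, had 32.8% and 38.0% in wild type against 19.2% and 20.5% in the knockout. Its partner, the C at 1293 of the heavy file, had 34.0% and 39.5% in wild type against 6.82% and 6.87% in the knockout. The rRNA-strand values thus differed more between the groups than the light-strand ones, whose change did not pass the threshold of limma (adjusted p = 0.0531).

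Some positions of the stretch were listed at a fraction of exactly 0, and nearly all of these were in the knockout. Zeros numbered 25 and 20 of 2581 in the wild-type libraries and 254 and 388 in the knockout libraries. They were at 0 in both knockout libraries at 113 positions and in both wild-type libraries at 3. The rest of the file, with 13919 positions, had 41 and 39 zeros in wild type against 17 and 26 in the knockout. At A and C the knockout libraries had 161 and 222 zeros of 1028, and at G and T 93 and 166 of 1553. Opposite RNR1 they had 120 and 188 of 954 in all, and opposite RNR2 134 and 199 of 1558. Opposite TRNV there were 2 zeros in 1 wild-type library and 1 in 1 knockout library, and none in the other two. In the heavy-strand file the same stretch had 0 and 0 zeros in wild type against 5 and 29 in the knockout. The files hold no read counts, so the depth is unknown and a listed 0 can be a position with few reads or none. Its part in the results was not tested beyond leaving such positions out.

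**Figure D3:**
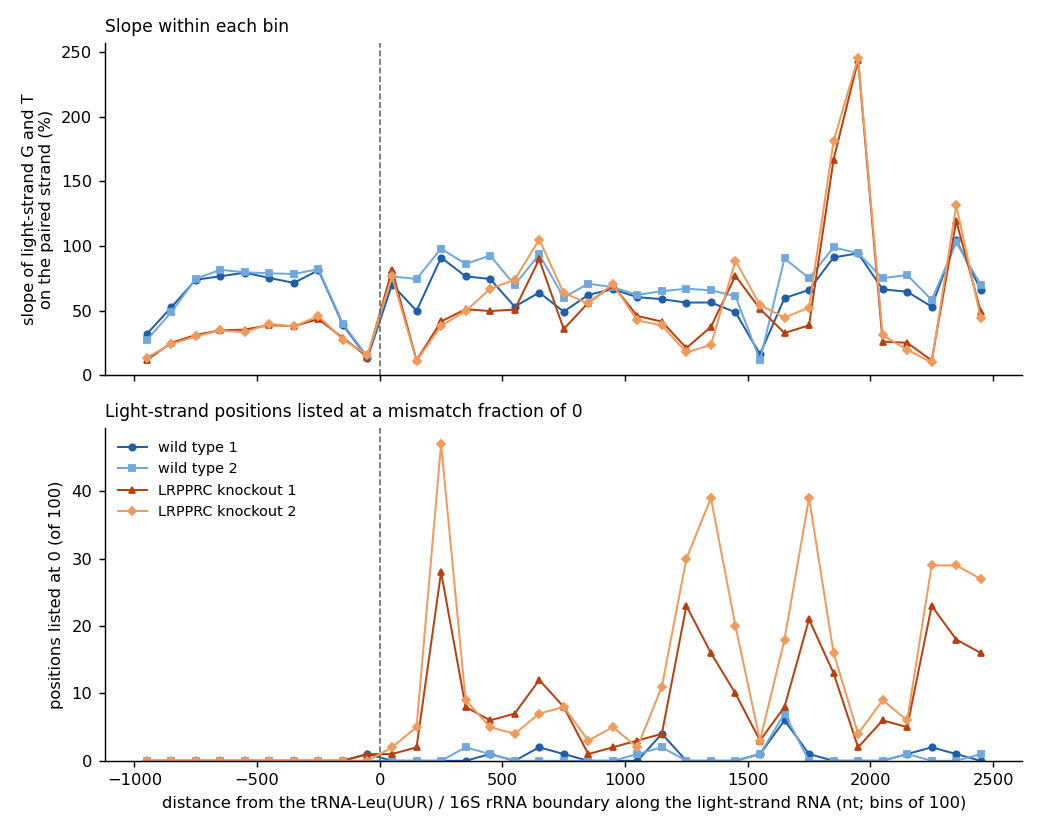
Top, slope of light-strand G and T on the paired strand within each 100-nt bin (y axis, percent). Bottom, positions of each bin listed at a mismatch fraction of 0 (y axis, of 100), both against distance from the edge (x axis, nt), with 1 line per library. The knockout slopes peak at 244% and 245% in the bin that starts 1900 nt past the edge, and knockout zeros peak at 28 and 47 in the bin that starts at 200 nt.

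The zeros came in patches, though every bin held at least 1 in each knockout library. The bin from 200 to 299 nt past the edge held 28 and 47 in the knockout libraries and none in wild type. The bins that start at 1200, 1300, 1700, 2200, 2300 and 2400 nt held between 16 and 39 in the knockout and at most 2 in wild type. No bin of wild type held more than 7. Knockout replicate 2 held more zeros than knockout replicate 1 in all of these patches. At A and C replicates agreed less in the stretch than elsewhere. Across the tested positions of the stretch, log2 values correlated with a Pearson's r of 0.739 at A and C and 0.935 at G and T between the wild-type libraries. Between the knockout libraries it was 0.618 and 0.840. In the rest of the file r at A and C was 0.982 in wild type against 0.988 in the knockout.

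The fractions were tested one position at a time with limma on log2(fraction + 0.001), without centring, for positions with a mean of 0.002 to 0.3. Of 1028 A and C positions 558 lay under the lower limit, 1 lay above the upper one and 469 (45.6%) were tested. An adjusted p under 0.05 was reached by 79 that were lower in the knockout and by 53 that were higher, which is 16.8% and 11.3% of those tested. Over all 5544 A and C positions tested in the file, 14.3% were called lower and 46.2% higher. The median change was -0.20 in the stretch and 0.22 over the file. Opposite RNR1, 34 of 168 were lower and 23 higher. Opposite RNR2, 45 of 280 were lower and 28 higher, and opposite TRNV 0 of 21 were lower and 2 higher. Centred on the median of each library, which moves A and C by 0.54 between the groups, 181 were called lower and 23 higher. These are 38.6% and 4.90% of those tested, against 50.7% and 24.6% over the file, so both shares were below those of the file. With either wild-type library left out, 38 were called lower.

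At G and T, 1286 of 1553 positions (82.8%) were tested, with 263 under the lower limit and 4 above the upper one. In the knockout 532 were lower and 73 were higher (41.4% and 5.68%). Over all 9757 G and T positions tested in the file 72.4% were lower and 2.28% higher, so falls were a smaller share in the stretch than in the file. The median change was -0.61 in the stretch and -1.04 over the file. Opposite RNR1, 218 of 479 fell and 27 rose, and opposite RNR2, 312 of 769 fell and 40 rose. Opposite TRNV 2 of 38 fell and 6 rose. Without wild-type replicate 2 the count of lower positions was 316. Median centring, which moves G and T by -1.23, turned the split to 102 lower and 561 higher (7.93% and 43.6%). Over the file the centred shares were 33.9% and 44.0%, so the share of rises was near that of the file. The directions above thus hold only for the fractions as deposited.

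Averaged in 50-nt windows, 30 of the 51 windows wholly inside had at least 8 tested A and C positions. Of these 10 were lower and 1 was higher in the knockout, against 24.1% and 56.4% over the file. With either wild-type library left out, 4 were lower, and between 1 and 6 were higher in the fits that left out 1 library. At G and T 39 of 51 windows were lower and 2 higher, against 87% and 1.52% over the file (4 were higher without knockout replicate 1). The 3 A and C windows that fell most lie near each other opposite RNR1 or across its edge with TRNV. Window 14951 to 15000 had 0.524% and 0.837% in wild type against 0.178% and 0.133% in the knockout (log2 change -1.36, SE 0.30, adjusted p = 0.00610). This call did not hold without wild-type replicate 1 (adjusted p = 0.0818). Window 15051 to 15100 had 0.716% and 0.737% against 0.332% and 0.314% (-0.93, SE 0.18, adjusted p = 0.00340), and without wild-type replicate 2 its adjusted p was 0.0606. Window 15301 to 15350 had 0.808% and 0.822% against 0.505% and 0.421% (-0.84, SE 0.14, adjusted p = 0.00197). The paired G and T of the heavy file in these 3 windows stood between 0.177% and 0.412% in every library.

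The A and C window that rose was 13651 to 13700, opposite RNR2. It had 0.631% and 0.606% in wild type against 1.18% and 1.39% in the knockout (log2 change 0.75, SE 0.06, adjusted p = 5.39e-05). Among the G and T windows that fell most, 15601 to 15650 opposite RNR1 went from 1.77% in both wild-type libraries to 0.383% and 0.262% (-1.94, SE 0.17, adjusted p = 0.000412).

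The 2 G and T windows that rose are neighbours at the edge of RNR2 with TRNV and within TRNV. Window 14851 to 14900 had 0.636% and 0.5996% in wild type against 0.912% and 0.885% in the knockout (0.37, SE 0.05, adjusted p = 0.00167). On the rRNA strand it had 3.02% and 3.27% against 1.72% and 1.90%, so the light-strand value rose where the rRNA-strand values were the lower ones in the knockout. Window 14901 to 14950 had 0.964% and 0.822% against 1.24% and 1.12% (0.28, SE 0.08, adjusted p = 0.0309), and this call did not hold without knockout replicate 1 (adjusted p = 0.132).

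Over whole genes, limma on mean log2 values of the 37 gene stretches called the fall at A and C opposite RNR1 (log2 change -0.23, SE 0.06, adjusted p = 0.0395). It is 1 of the 59.5% of gene stretches called in either direction at A and C. Leaving out either knockout library ended the call (adjusted p = 0.128 and 0.180), and so did leaving out positions listed at 0, where the change was -0.06 (adjusted p = 0.515). Opposite RNR2 the change was -0.22 (SE 0.09, adjusted p = 0.121) and opposite TRNV 0.0013 (SE 0.12, adjusted p = 0.992), neither past the threshold. Opposite ND1 and COX1 the same fit gave rises of 0.31 (SE 0.02, adjusted p = 0.00177) and 1.23 (SE 0.02, adjusted p = 0.000305). Of the 37 gene stretches this fit called 9 lower (24.3%) and 13 higher (35.1%). The called falls at TRNP (-0.25, SE 0.02, adjusted p = 0.00331) and TRNE (-0.22, SE 0.01, adjusted p = 0.00155) were about as large as that opposite RNR1. A fall of this size was thus not particular to RNR1. Over the 469 tested A and C positions together the linear mean was 0.576% and 0.557% in wild type against 0.565% and 0.5504% in the knockout, and the groups overlapped (exact permutation p = 0.6667).

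At G and T, 67.6% of gene stretches were called in either direction. Opposite RNR1 the mean went from 1.49% and 1.64% to 0.955% and 1.04% (log2 change -0.77, SE 0.04, adjusted p = 0.000404). Opposite RNR2 it went from 1.74% and 1.98% to 1.23% and 1.35% (-0.71, SE 0.05, adjusted p = 0.000888). Opposite TRNV it went the other way, from 1.52% and 1.34% to 2.15% and 1.97% (0.30, SE 0.08, adjusted p = 0.0439), and this call did not hold with either knockout library left out (adjusted p = 0.224 and 0.180). Much of this linear rise came from the T at 14959, with 22.6% and 20.9% against 37.5% and 33.8%. Over the other 40 G and T positions opposite TRNV, tested or not, means were 0.894% and 0.761% against 1.11% and 1.04%. The limma fit also called rises opposite TRNW (0.44, SE 0.09, adjusted p = 0.0212) and TRND (0.28, SE 0.02, adjusted p = 0.000888), which are tRNA genes as well. Opposite ND1 the change was -0.96 (SE 0.02, adjusted p = 1.16e-05). Centred on library medians, the changes opposite RNR1 and RNR2 turned to 0.46 and 0.52.

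The 50 A and C positions with a mean of at least 1% were then described by themselves. They are 38 A and 12 C, with 20 opposite RNR1, 1 opposite TRNV and 29 opposite RNR2. Their mean was 1.77% and 1.87% in wild type against 2.10% and 2.19% in the knockout. The other A and C positions had 0.271% and 0.251% in wild type against 0.207% and 0.196% in the knockout. The 50 positions carried 25.0% and 27.6% of the summed A and C signal of the stretch in wild type against 34.2% and 36.4% in the knockout. In a fit limited to positions with such means, 17 were lower and 19 were higher in the knockout. Over all 3958 such positions of the file 16.2% were lower and 52.8% higher. More than 3 times the fraction of the paired rRNA-strand base was seen at 24 of the 50 in wild type and at 21 in the knockout. This count was not made over all A and C positions, and picking by the light-strand mean favours a high quotient. Some positions reached 1% through 1 group alone, such as 13660 in the knockout and 14992 in wild type. The means and counts of the 50 thus describe picked positions and test nothing.

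**Figure D4:**
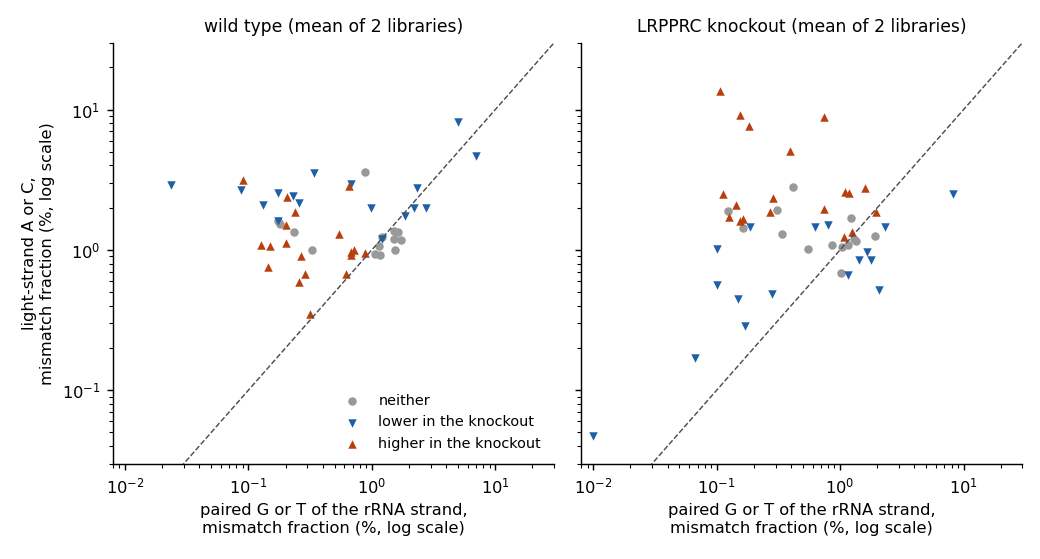
The 50 A and C positions of the stretch with a mean of at least 1% (y axis, light-strand mismatch fraction in percent) against the paired G or T of the rRNA strand (x axis, percent), both on log scales, as means of 2 libraries in wild type (left) and the LRPPRC knockout (right). Triangles point up for the 19 positions that rose and down for the 17 that fell, the dashed line marks equal values, and 1 paired value of 0 in the knockout is drawn at the left end, at 0.01%. The positions that rose to 7.64%, 9.23% and 13.7% lie far above the line in the knockout.

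Among the sites that rose, the A at 15300, opposite RNR1, had 3.80% and 2.47% in wild type against 11.2% and 16.2% in the knockout (log2 change 2.10, SE 0.27, adjusted p = 0.00319). The T it pairs with had between 0.0560% and 0.155% in the 4 libraries. The A at 15705, also opposite RNR1, had 1.15% and 1.88% against 8.07% and 7.22% (2.30, SE 0.23, adjusted p = 0.00141), with a partner between 0.144% and 0.220%. The C at 14016, opposite RNR2, had 2.41% and 2.35% against 9.11% and 9.35% (1.91, SE 0.03, adjusted p = 0.000103), with a partner between 0.122% and 0.213%. At each of these 3 sites the groups were far apart and the rRNA-strand partner stayed low. Other rises named by rank began from low levels. The C at 13660 had 0.410% and 0.284% against 2.06% and 1.86%, the C at 14782 had 0.136% and 0.0860% against 0.768% and 1.20%, and the C at 15692 had 0.0470% and 0.0930% against 0.55% and 0.974%.

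Falls at A and C were as large. The A at 15324, opposite RNR1, had 2.17% and 3.20% in wild type against 0.269% and 0.0720% in the knockout (-3.44, SE 0.42, adjusted p = 0.00261), and its partner lay between 0.0490% and 0.0950%. It is close to the A at 15300, which rose. The A at 15079 had 2.22% and 2.12% against 0.479% and 0.0930% (-2.76, SE 0.54, adjusted p = 0.0121), a call that did not hold with either wild-type library left out (adjusted p = 0.0588 and 0.0587). The C at 15807 had 7.12% and 9.22% against 1.98% and 0.923% (-2.49, SE 0.37, adjusted p = 0.00482). Its partner, a G of 12S rRNA, was itself high, at 4.79% and 5.13% against 2.70% and 1.95%. The C at 14420 went from 1.88% and 1.78% to 0.0860% and 0.196% and the C at 15581 from 1.38% and 1.30% to 0.0290% and 0.192%. At both of these the G of the rRNA strand was lower in the knockout as well, from 3.21% to 0.534% and from 2.73% to 0.229% as group means.

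Further A positions fell that were listed at 0 in 1 knockout library. The A at 14992 had 1.74% and 4.09% in wild type against 0.0950% and 0 in the knockout. At 15608 the values were 1.16% and 1.02% against 0.194% and 0, and at 15694 they were 0.925% and 0.874% against 0 and 0.158%. The calls at 15608 and 15694 did not hold with either wild-type library left out (adjusted p between 0.0566 and 0.0643). The A at 15548 was the third highest of wild type, with 4.72% and 4.60% against 2.24% and 2.78% (-0.88, SE 0.11, adjusted p = 0.00262). Its partner on the rRNA strand was higher than it in every library, at 7.20%, 6.84%, 8.01% and 8.43%. The A at 13373, above the upper limit and left out of tests, had 50.1% and 60.1% in wild type against 51.0% and 61.3% in the knockout. It was the highest A or C in every library and the groups overlapped. Its partner, a T, had between 45.8% and 54.2%, though DMS marks that base little. Whether the mismatches of this pair came from DMS was not tested.

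Opposite rRNA bases with a fraction above 0.3, light-strand values were high as well. The T at 13952, opposite the methylated A of 16S rRNA, had 29.9% and 50.5% in wild type against 9.62% and 18.7% in the knockout (log2 change -1.53, SE 0.48, adjusted p = 0.0431). The A had 62.4% and 66.1% against 29.3% and 37.8% in the heavy-strand file. The call for the T did not hold with either wild-type library left out (adjusted p = 0.0867 and 0.197), nor when centred (0.580). The T at 14959, opposite the ninth base of the valine tRNA gene, had 22.6% and 20.9% against 37.5% and 33.8% (0.71, SE 0.29, adjusted p = 0.0858), and that base had 29.6% and 23.3% against 40.3% and 33.9%. The rise of the T passed the threshold with either knockout library left out (adjusted p = 0.0168 and 0.0124). At all 10 positions of this kind the light-strand value lay below the rRNA-strand value in each of the 4 libraries. The 10 were picked for a high rRNA-strand mean, which favours this order.

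Opposite RNR1 the T at 15131 had 80.7% and 88.0% in wild type against 39.9% and 20.7% in the knockout, and the T at 15819 had 63.6% and 73.2% against 24.0% in both. Their partners went from 90.2% and 93.8% to 57.1% and 40.6% and from 87.8% and 93.3% to 43.4% and 39.4%. The T at 15401 had 55.6% and 60.7% against 36.2% and 33.7%, and the T at 13863 had 46.3% and 65.5% against 41.7% and 65.3%. These 4 lay above the upper limit and were not tested. Whether their mismatches came from DMS was not tested either. The T at 15805 went from 30.3% and 37.4% to 9.16% and 5.87% (-2.18, SE 0.30, adjusted p = 0.00263) and the G at 14625 from 21.1% and 27.3% to 7.92% and 2.95% (-2.29, SE 0.51, adjusted p = 0.0149). The call at 14625 did not hold with either wild-type library left out (adjusted p = 0.0744 and 0.0987), nor when centred (0.120). The G at 14508 had 24.2% and 25.2% against 19.9% and 20.3%, and the T at 13380 had 23.7% and 26.4% against 26.6% and 31.8%. Neither of them passed the threshold (adjusted p = 0.309 and 0.543).

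Among the other G and T positions that rose, the T at 13672 reached the highest level of those named here. It had 3.59% and 3.43% in wild type against 10.96% and 14.9% in the knockout (log2 change 1.84, SE 0.18, adjusted p = 0.000763). The A it pairs with had 1.104% and 1.08% against 0.821% and 1.02%, below the light-strand value in each library. The T at 15231 had 0.579% and 0.453% against 3.46% and 2.02% with a partner that went from 0.513% to 0.116% as group means. The T at 14889 had 1.24% and 0.549% against 3.91% and 3.65%, the T at 15152 0.835% and 0.838% against 2.27% and 4.88%, and the G at 15875 0.631% and 0.363% against 1.42% and 1.88%. The call at 15152 did not hold with either wild-type library left out (adjusted p = 0.0730 and 0.0705).

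The falls at G and T named by rank and described here were all at T. The T at 15614 went from 2.86% and 2.69% to 0.160% and 0.243% and the T at 15627 from 2.71% and 2.64% to 0.433% and 0.0660%. The T at 15347 went from 2.44% and 3.56% to 0.261% and 0.202% and the T at 13437 from 1.09% and 1.39% to 0.0400% and 0.0480%. At each of these 4 sites the rRNA-strand value was lower in the knockout as well. The call at 15627 did not hold with either wild-type library left out (adjusted p = 0.0603 and 0.0571).

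Finally, the fractions were set against predicted pairing of each strand's own sequence. Spearman's rho between the fraction at A and C and the predicted chance of being unpaired on the light strand lay between 0.0226 and 0.0563 in the 4 libraries over 1027 positions. With the predicted unpaired chance of the base opposite, on the rRNA strand, the same fractions had a rho between 0.150 and 0.203. Opposite ND1 rho lay between 0.380 and 0.492 for the light strand's own prediction and between 0.576 and 0.606 for that of the opposite strand, over 340 positions. At G and T, rho with the predicted unpaired chance of the rRNA-strand partner lay between 0.259 and 0.321 over 1543 positions, and in the heavy-strand file itself between 0.379 and 0.402. These are descriptions across positions, which share a library and base composition.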

How the data were processed

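The 4 libraries have 1 deposited file per strand. Per the file headers, a row holds a position, its base, the fraction of mismatches and the fraction of mismatches with deletions. The submitters' processing notes name cutadapt and Bowtie2. Versions, genome build, read filters, coverage minimum and how reads were assigned to a strand are not given in the sources used here. Read counts were not used here, so depth is unknown and no interval was computed. That 2 libraries stand in each group limits the precision.

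The fractions were used as deposited. Genes were placed with the GRCh38.p14 gene table, lowered by 1 beyond a point inside RNR2, after which 13 of 13 protein-coding genes read open (0 without the shift). Limma 3.58.1 (R 4.3.3) was fitted to log2(fraction + 0.001) of all 4 libraries over all positions of a kind with a mean of 0.002 to 0.3, with group as the only term, and p-values were adjusted by Benjamini-Hochberg over the file. A fold change on this scale understates the change of low positions. The threshold was 0.05. Windows needed 8 tested positions and gene stretches 10. Slopes are least squares per library. Single values were compared by an exact permutation test, two-sided. Pairing was predicted with RNAplfold 2.7.2 (window 240, span 160). Tables and plots were made with Python 3.11.15 (pandas 2.3.3, matplotlib 3.10.9, scipy 1.17.1, numpy 2.4.6). The fit was tested on simulated data with 200 changed positions of each kind.

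Named positions are the 5 largest called rises and falls at A and C and at G and T without a listed 0, the 3 windows of each kind and direction, every G or T whose rRNA-strand partner exceeds 0.3, the 3 highest A and C positions per group and the 3 largest falls listed at 0 in a knockout library. Some windows and positions under this rule are not reported here. The members and these lists were chosen with earlier results of these data known. Fits were repeated with centring, other pseudocounts, limits and columns, a replicate block, and without each library.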

Additional observations from a re-analysis of the deposited data

How the results depend on the processing

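The counts of called positions depended most on scaling and limits. Centred on library medians, 181 A and C positions were lower and 23 higher (38.6% and 4.90%, against 50.7% and 24.6% over the file). At G and T 102 positions were lower and 561 higher (7.93% and 43.6%, against 33.9% and 44.0%). Of the A and C windows 22 were lower (73.3%, against 62.2%). Of the G and T windows 3 were lower and 35 higher (5.88% and 68.6%, against 41.5% and 49.7%). The other counts below show how far the calls move and are given without shares over the file. With no lower limit 176 A and C positions were lower, with 28 A and C windows lower and 2 higher. With a mean of at least 0.01, 17 A and C positions were lower and 19 higher, 222 G and T positions were lower and 46 higher, 16 G and T windows were lower, and no A and C window of the stretch could be tested. With a pseudocount of 0.01, 3 A and C windows and 4 G and T windows were higher, and with 0.0001 1 G and T window was. Without positions listed at 0, 2 A and C windows were higher. Leaving out each library gave 38 to 115 lower and 43 to 61 higher A and C positions, 316 to 654 lower and 54 to 109 higher G and T positions, 4 to 13 lower and 1 to 6 higher A and C windows, and 30 to 40 lower and 2 to 4 higher G and T windows.

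For the gene stretches, the A and C change opposite RNR1 was -0.0610 with a pseudocount of 0.01 (adjusted p = 0.0517), -0.41 with a mean of at least 0.01 (0.131) and -0.0620 without listed zeros (0.515), and opposite RNR2 it was -0.76 centred (0.00217), -0.40 with no lower limit (0.00881) and 0.0889 with a mean of at least 0.01 (0.0268). Opposite TRNV it was -0.54 centred (0.0141), -0.0377 with a pseudocount of 0.0001 and -0.12 with no lower limit. Leaving out each library gave -0.25 to -0.11 opposite RNR1, -0.17 to 0.0492 opposite TRNV and -0.34 to -0.09 opposite RNR2. At G and T centring gave 0.46 opposite RNR1 (0.000446) and 0.52 opposite RNR2 (0.000406). Opposite TRNV it was 0.37 with a pseudocount of 0.0001 (0.0749), 0.26 with no lower limit (0.0591) and 0.30 with deletions (0.0536), and 0.18 to 0.39 without each library. The slope opposite RNR2 differed by -24.0 points with T opposite A alone (0.0160) and by -16.9 with deletions (0.0378). Leaving out each library gave -30.5 to -25.7 points opposite RNR1, -22.0 to -13.8 opposite RNR2 and 16.05 to 31.3 opposite TRNV.

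The mean over tested A and C positions, a difference of -0.00874 percentage points, was 0.0189 without listed zeros and between -0.0191 and 0.0173 without each library, so it has no settled direction. The means at G and T, the ratio of A and C to G and T and the slope of the whole stretch kept their direction in every alternative run. Centring turned the changes at 14508 and 15276 to 0.93 and 0.40. Of 468 refits of named positions and windows, 435 kept direction and side of the threshold, 23 lost the call, 8 gained it and 2 turned. The cause of these changes was not tested. Depth is unknown, so how it limits the low A and C values and the zeros cannot be given.

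The labels give both groups replicates 1 and 2, which with 2 pairs does not show that the numbers pair the samples. The deviations of same-numbered libraries from their group means correlated at 0.00664 (A and C) and 0.0545 (G and T) across tested positions of the stretch. With the replicate number as a block, 3 A and C windows and 5 G and T windows were higher, the A and C change of -0.22 opposite RNR2 passed the threshold (adjusted p = 0.00328), the G and T change of 0.30 opposite TRNV did not (0.0836), and the slope differences of 23.3 points opposite TRNV (0.00459) and -15.8 opposite RNR2 (0.0285) did.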
